A study of Mus musculus with 36 samples.

Results

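Goblet cells are the mucus-secreting cells of the intestinal epithelium. Here they are the cells that the authors' deposited cell table names goblet, joined to the count matrices of 2 droplet single-cell RNA libraries by library and cell barcode. There were 355 of them among 2614 annotated cells, 105 of 1144 in set 1 and 250 of 1470 in set 2. The other 7 classes of that table were enterocyte (894 cells), progenitor (694), secretory progenitor (228), Paneth (158), ISC (intestinal stem cell, 158), EEC (enteroendocrine cell, 80) and tuft (47). Both libraries hold separated small-intestinal cells of wild-type mice aged 12 months, of the strain written C57BL6/2J, with no treatment named. The labels do not say how many animals entered a library, or whether the 2 sets are separate animals. The series also holds small RNA libraries of sorted epithelial populations, not used here.

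A goblet cell fills its apical granules with the gel-forming mucin Muc2 and with proteins that are packed and secreted with it. The mucin folds and dimerises in the endoplasmic reticulum (ER), receives O-linked sugars in the Golgi and is released by granule exocytosis. The factors Atoh1 and Spdef direct cells of the crypt to this fate while Notch signalling opposes it. Each library was compared on its own, with UMIs (unique molecular identifiers, each standing for 1 captured RNA molecule) summed over goblet cells and over all other annotated cells. Levels are CPM (UMI counts per 1000000 UMIs of the sum), with no division by transcript length, and ratios are log2 of goblet over other cells. The class labels were made from these same cells, so a gene that separates goblet cells from the rest is a description and was given no test. Exact binomial 95% intervals cover counting error only.

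The matrices list 27998 genes and hold 1209 barcodes in set 1 and 7711 in set 2, and the libraries shared 0 barcodes. No annotation was given to 65 and 6241 of these, which enter no comparison. Goblet cells carried a median of 17043 UMIs in set 1 (8454 to 30198) and 23920.5 in set 2 (2262 to 97536), in all 1839533 and 6647506. Paneth cells were the deepest, at medians of 73555 and 67245 UMIs, and gave 5861083 of the 22108035 UMIs of the other cells in set 1 and 4433383 of 41326755 in set 2. The mitochondrial share of UMIs had a median of 3.57% and 6.66% in goblet cells against 6.06% and 9.94% in the other annotated cells. No annotated cell exceeded 15%.

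Goblet cells made up 9.18% of annotated cells in set 1 (exact 95% interval 7.57% to 11%) and 17.0% in set 2 (15.1% to 19.0%). The intervals do not overlap, but with 1 library on each side there is no replicate check.

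The label matched its markers. Every goblet cell, 105 of 105 and 250 of 250, held at least 1 UMI of each of Muc2, Tff3, Fcgbp and Agr2. All 4 were also found together in 92.7% and 93.2% of secretory progenitors, in 71.4% and 70.3% of the much deeper Paneth cells, and in 3.45% and 12.9% of enterocytes. Muc2 stood at 5006 CPM in goblet cells of set 1 and 9608 in set 2, against 216 and 819 in the other cells. Fcgbp, a mucus protein that is cross-linked with the mucin, was at 7519 and 12135 against 219 and 778. The trefoil peptide Tff3 was at 60186 and 32594 against 2444 and 2241. Agr2, the ER disulfide isomerase needed for mucin folding, was at 20650 and 25081 against 813 and 2295. The 4 markers together took 9.34% and 7.94% of goblet UMIs, 3.36% and 2.94% of those of secretory progenitors, and at most 0.688% in any other class of either library. Goblet cells were the highest class for each marker in both libraries and secretory progenitors came next. As RefSeq promoters of build GRCm38.p6, the 250 bases before the start are shown for Muc2 (chr7:141690090-141690339, + strand) and Fcgbp (chr7:28070986-28071235, + strand). They are the 2 of 3 markers with a promoter in the RefSeq table whose window holds the E-box CAGCTG, in capitals. Agr2 has a promoter there without this E-box, and Tff3 has no promoter there. The E-box is of the kind bound by helix-loop-helix factors such as Atoh1.

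Muc2: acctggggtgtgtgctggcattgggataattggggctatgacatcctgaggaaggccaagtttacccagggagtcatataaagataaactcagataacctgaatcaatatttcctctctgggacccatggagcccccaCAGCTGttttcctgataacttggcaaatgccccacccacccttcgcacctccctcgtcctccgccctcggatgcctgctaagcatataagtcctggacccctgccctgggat
Fcgbp: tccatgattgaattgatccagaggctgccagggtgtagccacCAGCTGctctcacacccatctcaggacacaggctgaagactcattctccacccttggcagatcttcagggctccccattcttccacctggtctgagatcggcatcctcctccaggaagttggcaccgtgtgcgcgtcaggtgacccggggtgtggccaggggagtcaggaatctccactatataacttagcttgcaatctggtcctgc

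The E-box lay 112 bases before the Muc2 start and 208 before the Fcgbp start. It reads the same on both strands and stood in this window in 14.7% of the 27025 genes with a promoter in the table, and in 58 of the 343 genes with a promoter (16.9%) among those at least 2-fold higher in goblet cells. The letters TATAAA, also searched on both strands, were in 14.3% of all genes in the table and in 29 of those 343 (8.45%), Muc2 among them. A match is a description of the letters only.

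**Figure D1:**
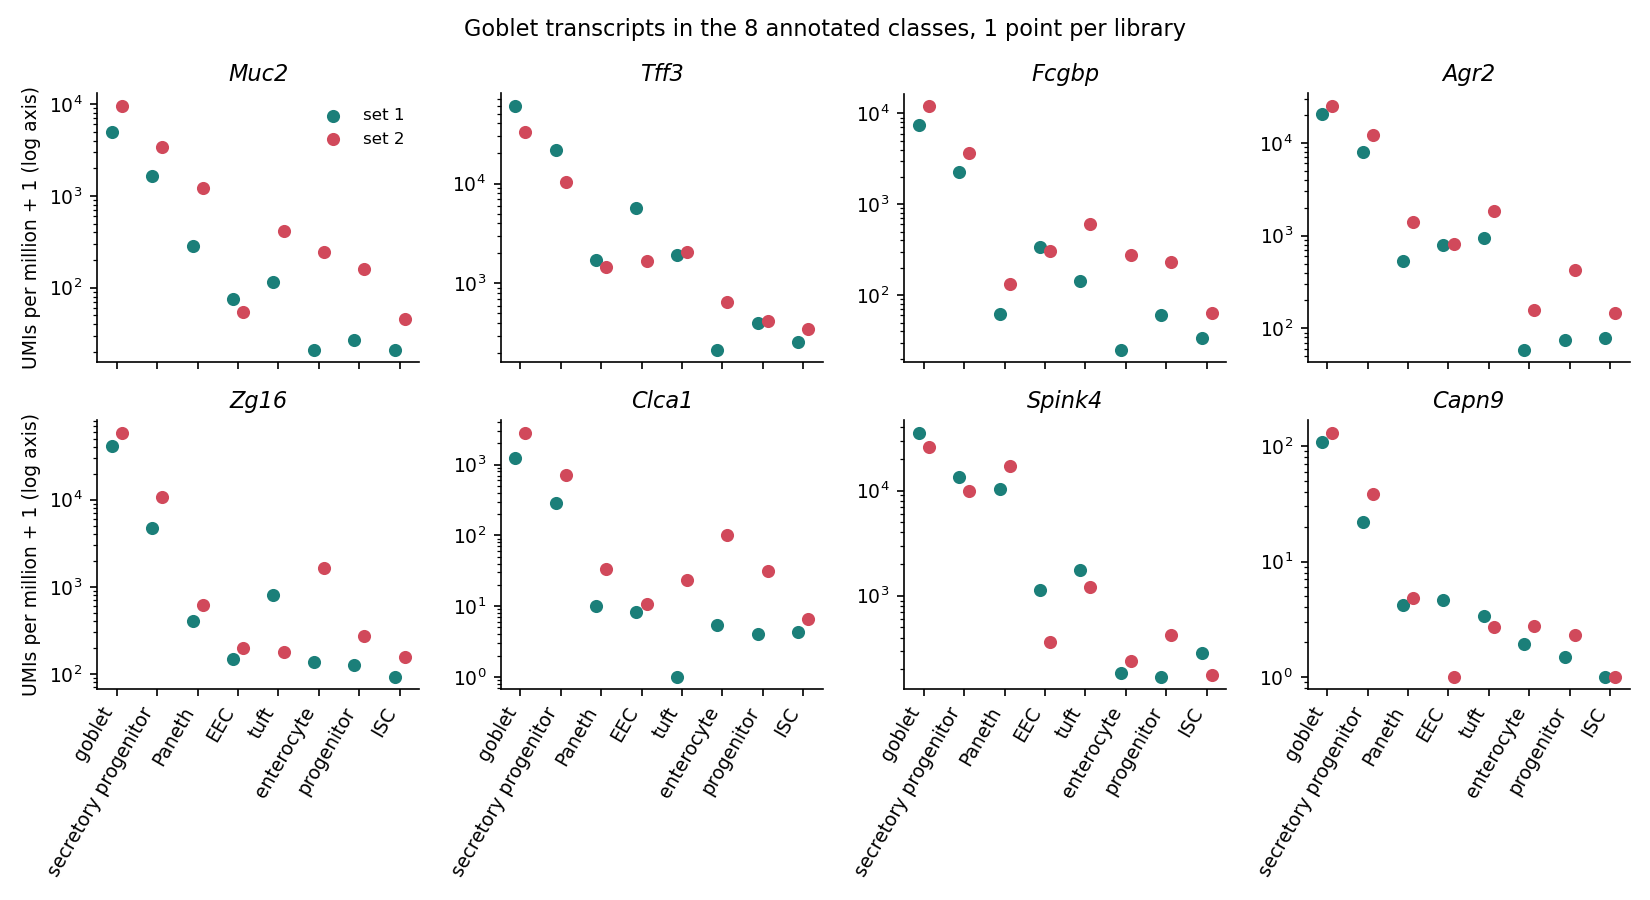
Levels of 8 goblet transcripts in the 8 annotated classes, as CPM plus 1 on a log axis, with 1 point per library (set 1 green, set 2 red). Goblet cells are highest and secretory progenitors next in every panel except Spink4 in set 2, where Paneth cells come second.

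Over the whole transcriptome, 9670 genes had an expected goblet count of at least 5 in each library. Of these, 478 (4.94%) were at least 2-fold higher in goblet cells in both libraries, and 906 (9.37%) at least 2-fold lower. The median ratio of all tested genes was -0.03 in set 1 and -0.28 in set 2. Goblet cells were the highest of the 8 classes in both libraries for 306 of the 478, and for 186 of those the class next in order was secretory progenitor in both. Among the tested genes, 66 passed the filter only through their goblet counts, 37 of which are among the 478.

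The 20 genes furthest above the other cells have varied roles. Zg16, a lectin that binds bacterial cell walls in mucus, led with a ratio of 6.23 in set 1 (6.20 to 6.26) and 4.58 in set 2 (4.57 to 4.59), at 41913 and 59083 CPM against 558 and 2471. The calpain protease Capn9 followed at 5.15 (4.75 to 5.58) and 4.12 (3.93 to 4.31), with 107 and 130 CPM. Clca1, a secreted protease that acts on the mucus gel, was at 5.56 and 4.12. Mptx1, a pentraxin of the intestinal mucosa, had few UMIs, 59 and 82 in all, and ratios of 4.75 (4.08 to 5.49) and 3.98 (3.39 to 4.63). Those UMIs came from only 11.4% and 7.2% of goblet cells. The rest of the 20 leading genes had ratios of 3.44 or more in each library. Beside the 4 markers they were the proteases Klk1, Bace2, Tpsg1 and Hgfac, the secreted phospholipase Pla2g10, the ferlin Fer1l6, the Rab15 effector Rep15, the small GTPase Rasd2, the signalling regulator Rgs2, the ADP-ribosyltransferase Art2b, and Bcas1 and Smim5. Their goblet levels ran from 17.6 CPM for Rasd2 in set 2 to 429 for Rep15 in set 2, apart from Klk1 at 860 and 945.

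**Figure D2:**
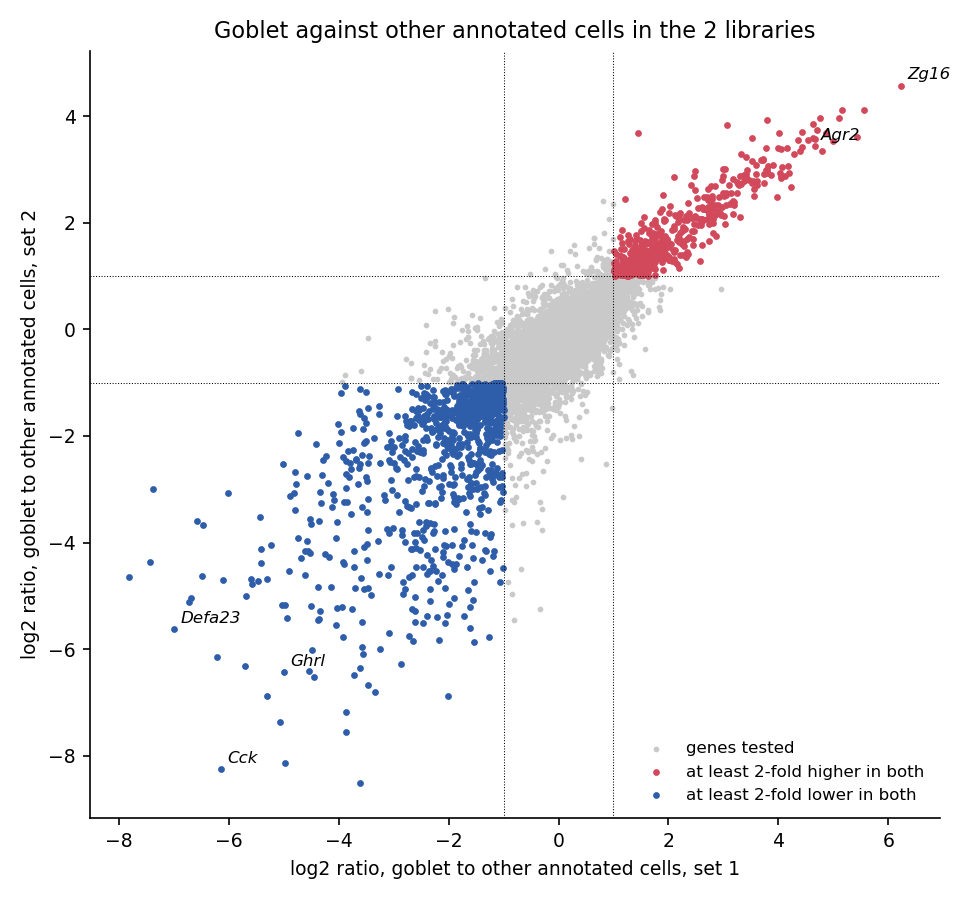
Ratio of goblet to other annotated cells (log2) for each of the 9670 tested genes, set 1 on the horizontal and set 2 on the vertical axis. The 478 genes at least 2-fold higher in both libraries are red and the 906 lower are blue, and the higher genes mostly have the larger ratio in set 1.

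Mucus and granule proteins were higher in 15 of 28 tested members, with 5 lower, and a median ratio of 2.17 and 1.73 against -0.03 and -0.28 for all genes. All 41 listed members are in the matrices. The list took 21.2% of goblet UMIs in set 1 and 20.01% in set 2, against 7.13% and 7.07% in secretory progenitors and at most 2.72% in any other class. Spink4, a Kazal-type protease inhibitor, stood at 35746 and 26120 CPM against 3939 and 3677, with Paneth cells at 10372 and 17126. Guca2a, the precursor of the peptide guanylin, was at 9943 and 4906 against 625 and 461. The chemokines Ccl6 and Ccl9 were higher as well, Ccl6 at 1952 and 1368 against 366 and 209. The galectins Lgals2 and Lgals4 were abundant in goblet cells without reaching 2-fold in both libraries, Lgals4 with ratios of 1.30 and 0.84. The lower members include the membrane mucin Muc3, known from enterocytes (ratios -1.66 and -1.23), and the trypsin inhibitor Spink1 (-2.66 and -2.25). Lypd8, which keeps flagellated bacteria away from the epithelium, was at 3279 and 3923 against 1446 and 2447. The second guanylin, Guca2b, showed no excess, at 707 and 363 against 1002 and 515.

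Transcription factors of the secretory lineage were higher in 13 of 31 tested members of a list that also holds the Notch pathway, with 5 lower and a median of 0.69 and 0.77. Atoh1, the factor that starts the secretory programme, was at 179 and 162 CPM against 10.9 and 22.6. Spdef, which drives goblet maturation, was at 157 and 161 against 10.7 and 21.6. Foxa3 was at 173 and 171 against 18.0 and 25.9, and Gfi1 at 21.7 and 27.5 against 2.76 and 3.39. The ER-bound factors Creb3l1 and Creb3l4 were at 201 and 189 and at 107 and 132 in goblet cells, with ratios between 2.50 and 3.78. Klf4 was higher too, with 285 and 350 against 31.3 and 69.0. The Notch ligands Dll1 and Dll4 were higher, Dll1 with ratios of 2.27 and 1.92. The receptors Notch1 and Notch2 were lower, Notch1 at 2.72 and 1.504 CPM against 8.41 and 10.1. Sox4, a factor of early secretory cells, was also lower, at 20.7 and 12.2 against 49.0 and 62.9. Sox9, by which sorted populations of the series were defined, was at 39.7 and 46.6 in goblet cells, below tuft cells at 289 and 232. Cd24a, which codes for the CD24 surface protein, was at 314 and 189, below EEC and tuft cells in both libraries.

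Of 48 tested enzymes of mucin-type O-glycosylation and its sugar supply, 25 were higher and 3 lower. Their median ratio was 1.13 and 1.14. Chst4, which adds sulfate to mucin sugars, had the largest ratios of the list, 4.79 and 3.35, at 77.7 and 71.2 CPM against 2.80 and 6.97. Initiating GalNAc transferases were well represented, with Galnt12 at 224 and 258 against 20.4 and 36.7 and Galnt7 at 201 and 385 against 41.4 and 92.7. C1galt1 and its chaperone C1galt1c1, which build core 1, were at 118 and 199 and at 194 and 234, with ratios between 1.82 and 2.78. Gcnt3, which builds cores 2 and 4, had ratios of 3.78 and 2.95. Of the precursor pathway, Nans, Gfpt1, Pgm3 and the sulfate-donor enzyme Papss1 were higher, Gfpt1 at 257 and 375 against 85.9 and 148. St3gal4, a sialyltransferase, was lower, at 134 and 244 against 381 and 538. Galnt5, St3gal1 and St3gal3 are among the 25 but passed the filter only through their goblet counts.

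Of 48 tested genes of ER folding and the unfolded protein response, 21 were higher and 0 lower. Their median ratio was 1.06 and 0.93. The members with the largest ratios were not the most general chaperones. Pdia5, a disulfide isomerase, was at 164 and 169 CPM against 12.3 and 25.1, and Fkbp11, a prolyl isomerase, at 191 and 268 against 15.8 and 31.6. Ern2, the stress sensor known from mucus-secreting epithelia, was at 96.2 and 141 against 8.96 and 17.7, while its relative Ern1 was not among the higher genes. Txndc5 was at 864 and 855 against 73.4 and 137. The chaperone Hspa5 (BiP) had smaller ratios of 1.21 and 1.23, at 610 and 1029 against 264 and 440. Hsp90b1 was at 535 and 894 against 289 and 547, with ratios of 0.89 and 0.71, and Canx at 249 and 300 against 277 and 361. Xbp1, the factor spliced under ER stress, was at 248 and 303 against 104 and 132, which counts all of its transcripts and not the spliced form. Promoters of 3 higher members are shown because they hold the ER stress response element, the letters CCAAT and CCACG parted by 9 bases, known from genes of this response, in capitals (on the opposite strand in Creld2). They are Hspa5 (chr2:34771840-34772089), Creld2 (chr15:88819396-88819645) and Pdia6 (chr12:17266339-17266588), all on the + strand, from the same RefSeq table.

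Hspa5: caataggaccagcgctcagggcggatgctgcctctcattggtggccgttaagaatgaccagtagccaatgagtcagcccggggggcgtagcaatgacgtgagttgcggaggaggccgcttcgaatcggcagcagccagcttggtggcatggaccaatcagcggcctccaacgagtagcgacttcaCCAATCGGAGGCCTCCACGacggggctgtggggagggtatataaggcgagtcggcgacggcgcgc
Creld2: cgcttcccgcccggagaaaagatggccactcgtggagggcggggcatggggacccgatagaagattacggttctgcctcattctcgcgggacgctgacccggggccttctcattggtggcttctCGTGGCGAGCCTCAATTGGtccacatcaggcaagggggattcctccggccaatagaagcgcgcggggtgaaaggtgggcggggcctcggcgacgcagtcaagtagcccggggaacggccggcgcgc
Pdia6: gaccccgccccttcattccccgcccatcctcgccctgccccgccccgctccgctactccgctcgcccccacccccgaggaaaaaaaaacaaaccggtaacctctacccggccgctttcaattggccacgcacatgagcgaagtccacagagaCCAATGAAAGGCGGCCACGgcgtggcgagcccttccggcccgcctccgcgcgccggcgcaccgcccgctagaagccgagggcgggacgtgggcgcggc

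The motif, searched on both strands in 250 bases, was in 0.13% of all 27025 genes. It was in 3 of the 17 higher ER genes with a promoter in the table, and in 5 of 21 that were not called higher (Hsp90b1, Calr, Canx, Dnajc3 and Syvn1). The motif was thus present in both sets of ER genes. Pdia6 was at 514 and 732 CPM in goblet cells and Creld2 at 129 and 92.4, with ratios of 1.93 and 1.75 and of 1.83 and 1.37.

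Other steps of secretion, from entry into the ER to granule release, held further higher genes. Of 34 tested genes of the translocon, signal peptidase and N-glycan transfer, 10 were higher and 0 lower, with a median of 1.03 and 0.79. With Paneth cells left out of the other cells, 5 of 34 remained at least 2-fold higher, and 17 of 34 with totals that leave out the 50 genes with most goblet UMIs. Sec11c, a catalytic subunit of signal peptidase, had the largest ratios, 2.04 and 1.60, at 618 and 743 CPM. In ER to Golgi transport 11 of 53 were higher, with a median of 0.77 and 0.65, and 7 of 52 without Paneth cells in the other cells but 18 of 53 with totals that leave out 50 genes. Of all tested genes, 478 of 9670 were higher, 430 of 9972 without Paneth cells and 705 of 9670 with those totals. Kdelr3, a receptor that returns ER proteins from the Golgi, stood out at 83.2 and 125 CPM against 3.94 and 12.3. Its relative Kdelr2 was at 515 and 617 against 157 and 223. Of 33 tested genes of granule exocytosis 11 were higher and 2 lower, with a median of 0.53 and 0.48. They include the Rab proteins Rab27a, Rab27b and Rab3d, the synaptotagmin-like Sytl1 and Sytl2, and Syt7. Rab27b was at 133 and 187 CPM against 11.4 and 27.0, and Sytl2 at 81.0 and 177 against 6.29 and 19.4. Scin, which severs actin filaments, was at 215 and 259 against 26.9 and 35.3. The SNARE protein Vamp8, known from mucin release, was at 253 and 210 against 222 and 200, and Nlrp6, an inflammasome sensor studied in goblet cells, was lower, at 46.8 and 57.6 against 118 and 159.

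Transport and defence genes were split. Among 29 tested ion, water and bicarbonate transport genes 8 were higher and 11 lower, with a median of -0.31 and -1.09. The lower count was 7 with median-of-ratios scaling, with totals that leave out 50 genes (where 9 were higher) and with the other classes weighted equally. Among all 9670 tested genes the lower counts were then 721, 625 and 1020, against 906. The 8 higher transport genes were Slc12a8, Ano7, Kcnk6, Car8, the calcium pumps Atp2c2 and Atp2a3, and the zinc transporters Slc39a7 and Slc30a7. Slc12a8 was at 259 and 357 CPM against 18.3 and 42.7, and Atp2c2, a calcium pump of the Golgi, at 64.7 and 57.9 against 3.30 and 5.88. The lower ones include the apical exchangers Slc26a3 and Slc26a6 and the meprin Mep1b, a protease that cleaves Muc2, at 21.2 and 43.6 against 128 and 211. No UMI of the water channel Aqp3 was found in goblet cells, where 3 counts would be 1.63 and 0.451 CPM, so it was at least 2.52-fold and 3.43-fold lower than in the other cells. In the list of epithelial defence and immune signalling 3 of 27 tested genes were higher (Tnfrsf21, Cd9 and Ly6e) and 10 lower, with a median of -0.65 and -0.61. Tnfrsf21 passed the filter only through its goblet counts, and the higher count was 1 with the other classes weighted equally and 5 of 29 without Paneth cells. Over all tested genes the higher count was then 350 of 9670 and 430 of 9972, against 478 of 9670. The bactericidal lectin Reg3b was at 270 and 1842 against 1272 and 8293. The antigen-presentation gene Cd74 was at 432 and 439 against 1202 and 1219. Pigr, the transporter of secretory antibodies, was at 1155 and 1275 against 1378 and 1566.

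**Figure D3:**
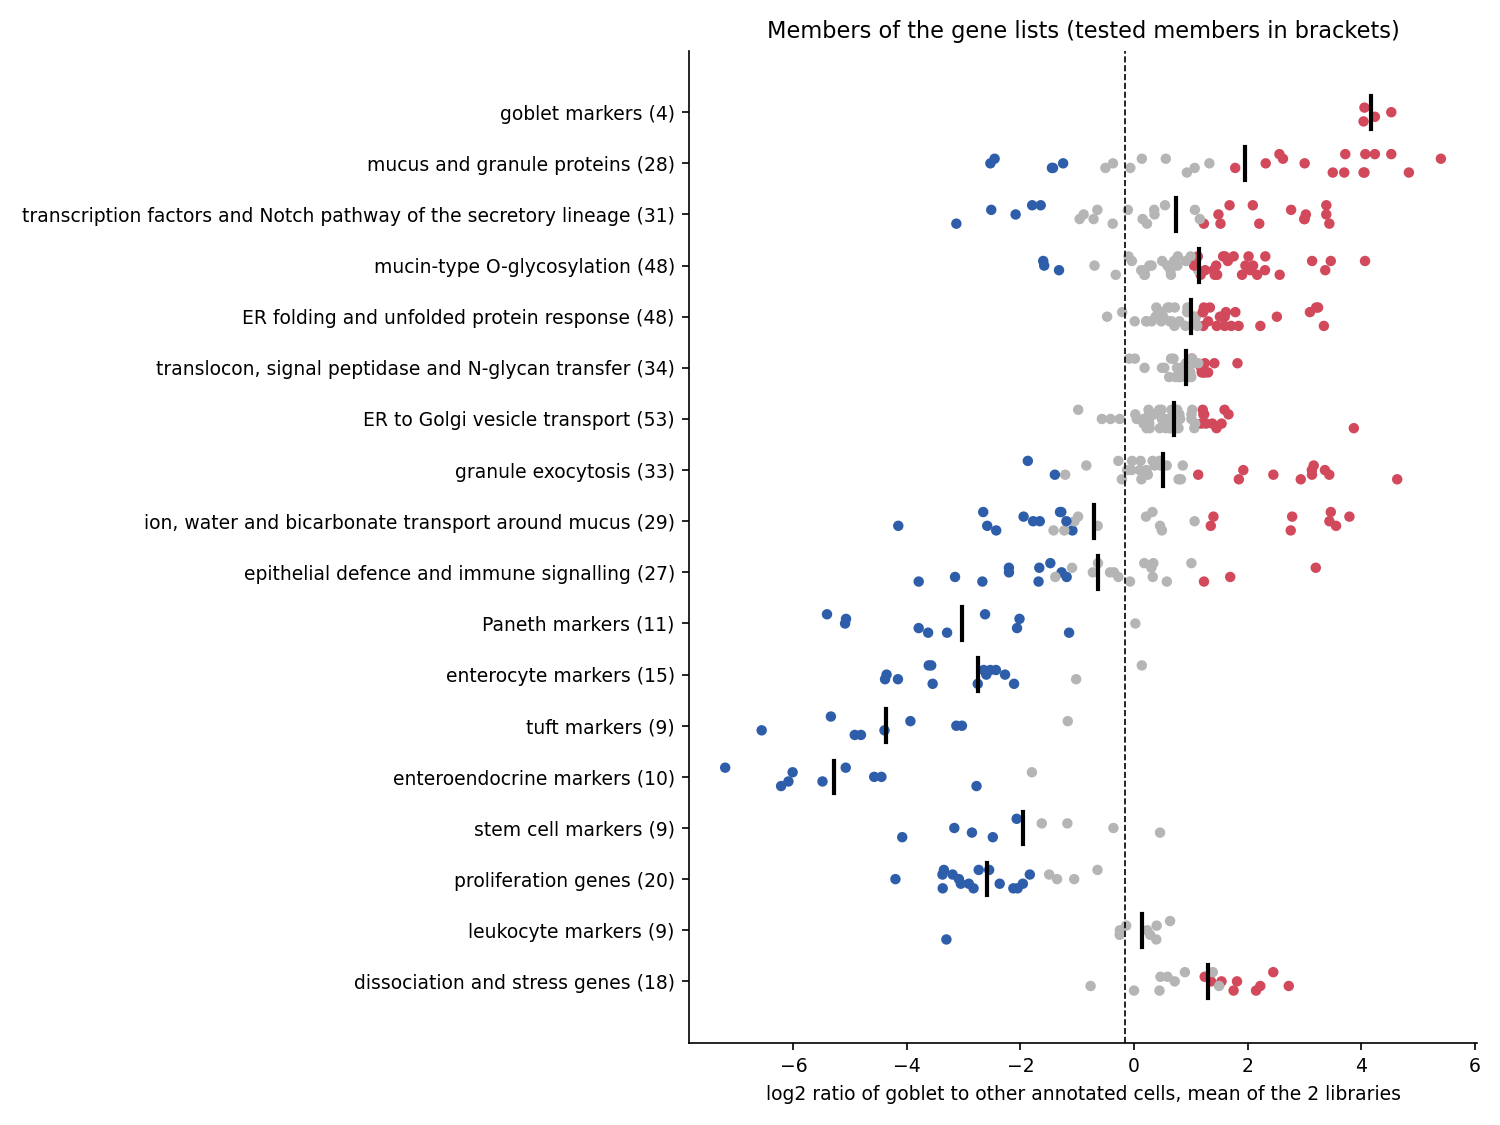
Mean of the 2 libraries' log2 ratio of goblet to other annotated cells for each tested member of 18 gene lists (number tested in brackets). Red and blue points are at least 2-fold higher or lower in both libraries, black bars are list medians and the dashed line is the median of all tested genes. Secretory lists lie right of the line, while markers of other classes and proliferation genes lie mostly left of it.

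Markers of other classes were mostly low in goblet cells beside the class they mark. Of 15 tested enterocyte markers 13 were lower and 0 higher, with Apoa1 at 115 and 57.2 CPM against 1734 and 1214, and the summed list at 3641 and 3178 in goblet cells against 59269 and 27010 in enterocytes. Krt20, a keratin of differentiated cells that enterocytes share, was at 226 and 243 against 212 and 214. Tuft markers were lower in 8 of 9 and enteroendocrine markers in 9 of 10. By summed level, goblet cells ranked 3 and 2 of the 8 classes for enterocyte markers. They ranked 4 and 6 for tuft markers and 5 and 4 for enteroendocrine markers, so they were not the lowest class. The 10 genes furthest below the other cells include the hormone genes Cck, Gip, Gcg and Ghrl, the peptide-processing enzyme Cpe, the tuft genes Sh2d6 and Rgs13, the defensin Defa23, and the transcription factor Spib. Cck had 7 and 6 goblet UMIs and ratios of -6.15 and -8.25. Spib had 0 in both libraries and was at least 5.21-fold and 6.01-fold lower. The stem cell markers were lower in 5 of 9, and Lgr5 had 0 UMIs in set 1 and 4 in set 2 (0.602 CPM). Leukocyte markers were lower in 1 of 9 (Lyz2), with summed levels of 86.4 and 98.7 CPM, and no stromal, vessel or red cell marker had enough counts.

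Of 20 tested proliferation genes 16 were lower and 0 higher, and the median was -1.64 and -3.52. After thinning each cell to 8000 UMIs, Mki67, a gene of dividing cells, was found in 7.62% of goblet cells in set 1 and 5.02% in set 2, against 67.1% and 78.9% of secretory progenitors and 2.96% and 6.58% of enterocytes. In set 2, 11 of 250 goblet, 4 of 146 secretory progenitor and 17 of 488 enterocyte cells were shallower and were left out. Without thinning the goblet shares were 15.2% in both sets, at median depths of 17043 and 23920.5 UMIs, and those of enterocytes 5.17% and 14.5%, at 15163.5 and 24697.5. Of 18 tested genes that respond to tissue dissociation, immediate early genes among them, 9 were higher and 0 lower (median 1.504 and 1.10). Fos was at 306 and 460 against 66.7 and 107. Their part in the other differences was not tested. The summed level of this list was 2578 and 2939 CPM in goblet cells, below EEC at 2832 and 3547 and above the other 6 classes.

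Secretory progenitors are the class most like goblet cells. Against them, 171 of 9815 tested genes (1.74%) were at least 2-fold higher in both libraries and 982 (10.0%) lower. All 20 tested proliferation genes were lower, with a median of -2.69 and -4.39 against -0.36 and -0.34 for all genes. Of 30 tested lineage factors and Notch genes 0 were higher and 4 lower (Jag1, Notch1, Notch2 and Sox4), shares near those of all genes. Atoh1 was at 179 and 162 CPM in goblet cells and 86.5 and 98.0 in secretory progenitors, and Spdef at 157 and 161 against 87.1 and 99.5. Mucus and granule proteins were higher in 13 of 29 and lower in 1 (Clca3b), with a median of 1.32 and 0.94. Zg16 differed most among them, at 41913 and 59083 against 4737 and 10725, ratios of 3.15 and 2.46. Clca1 had ratios of 2.12 and 2.00, whereas Agr2 had 1.38 and 1.06. At least 2-fold higher were 2 of 50 glycosylation genes (C1galt1c1 and Chst4), 1 of 48 ER folding genes (Fkbp11) and 0 of 34 translocon genes. These shares are also near that of all genes, but 0 members of these lists were lower, against 10.0% of all genes. Their medians were 0.46 and 0.49, 0.47 and 0.50, and 0.30 and 0.27, above the -0.36 and -0.34 of all genes. Enterocyte markers were higher in 4 of 14, namely Apoa1, Rbp2, Anpep and Krt20.

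The gene with the largest ratio to secretory progenitors was Ido1, an enzyme of tryptophan breakdown that interferon induces, followed by Gngt2, a G-protein subunit (2.95 and 3.05). The genes of this paragraph were singled out after their values were seen. Ido1 had 10 goblet UMIs in set 1 and 159 in set 2, and ratios of 4.24 and 6.72. In set 2 the 5 goblet cells with most Ido1 held 153 of the 159 UMIs, and 10 of 250 cells had any. In set 1 all 10 came from 2 of 105 cells. Ifit1, another interferon-induced gene, was spread likewise, with 109 of 156 UMIs in 5 cells of set 2 and 27 of 31 in set 1. Rsad2 had 67 of 81 and 18 of 19. The ratios of Ido1, Ifit1 and Rsad2 thus rest largely on a few cells in each library. Others that interferon induces were spread more widely. Apol9b, with ratios of 2.25 and 2.79, had 9 of 18 and 13 of 38 UMIs in 5 cells, and Ddx60 had 11 of 22 and 54 of 271. Ifi27l2b had UMIs in 103 of 105 and 247 of 250 goblet cells. Without thinning it was found about as often in secretory progenitors (97.6% and 99.3%) and enterocytes (97.0% and 99.4%), but these classes differ in depth. Progenitors then had it in 78.2% and 90.9% of cells and ISC in 83.3% and 87.5%. In thinned cells Ifi27l2b was in 95.2% and 98.3% of goblet cells, 92.1% and 96.4% of enterocytes and 89.0% and 85.9% of secretory progenitors. The intervals of goblet cells and secretory progenitors overlapped in set 1 but not in set 2 (95.8% to 99.5% against 79.1% to 91.2%). Those of goblet cells and enterocytes overlapped in both sets. The spread of Ifi27l2b thus does not set goblet cells apart from enterocytes. In thinned cells Ifit1 was in 5.71% and 5.02% of goblet cells, 19.5% and 8.92% of enterocytes and 1.22% and 0.704% of secretory progenitors.

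Against Paneth cells, the other granule-rich class, 5898 of 7623 tested genes (77.4%) were at least 2-fold higher in goblet cells and 75 (0.984%) lower. The median of all genes was 2.57 and 1.47, and Defa24 alone was at 283970 and 252383 CPM in Paneth cells. A gene's ratio to Paneth cells has to be read against that median. All 11 tested Paneth markers were lower. Spink4 was at 35746 and 26120 CPM in goblet cells against 10372 and 17126 in Paneth cells. Reg4, a secreted lectin, was at 837 and 193 against 1126 and 841.

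Paneth transcripts were nonetheless present among goblet cells. Against all other cells, 10 of 11 tested Paneth markers were lower and Mmp7, the protease that activates defensins, was neither, at 290 and 410 CPM against 367 and 314. With Paneth cells left out of the other cells, 6 of 9 tested Paneth markers were higher and 0 lower, with mean ratios of 2.31 for Defa24, 2.18 for Lyz1 and 2.72 for Itln1, an intelectin. The summed Paneth markers were at 12582 and 10213 CPM in goblet cells, second to Paneth cells at 501582 and 434929, and lowest in enterocytes at 3211 and 462. Defa24 itself was at 9253 and 6120 in goblet cells, 6340 and 2304 in secretory progenitors, and 2224 and 250 in enterocytes, which do not make defensins. After thinning to 8000 UMIs every enterocyte of set 1 and 86.0% of those of set 2 had a Defa24 UMI, so shares of cells with a UMI cannot be read for this gene. Alpha-defensin genes are near-identical copies, so the split of reads among them is uncertain.

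These transcripts were uneven among goblet cells. Of 105 thinned cells in set 1, 18 held at least 100 Paneth-marker UMIs of 8000, and 30 of 239 in set 2. Those cells carried 73.9% and 85.1% of the Defa24 UMIs of goblet cells. Their Muc2 was not low, with medians of 42 and 86 UMIs of 8000 against 32 and 72 in the remaining goblet cells. Spink4 was higher in them, at medians of 565 and 461 against 217 and 184, and Zg16 lower, at 135.5 and 60 against 217 and 390. Their UMI totals were like those of the rest, at medians of 16607.5 and 22625.5 against 17079 and 24583. The mix of Paneth transcripts differed from that of Paneth cells. For every 100 Defa24 UMIs, goblet cells held 1.71 and 4.17 of Defa21 where Paneth cells held 19.9 and 11.3, and 0.153 and 0.809 of the pentraxin Mptx2 against 1.30 and 4.74. Mmp7 went the other way, at 3.13 and 6.70 against 0.465 and 0.972. Secretory progenitors held 2.76 and 1.22 for Defa21 and 2.10 and 11.2 for Mmp7, on the same side of Paneth cells as goblet cells. Enterocytes held 7.44 and 13.9 for Defa21 and 0.373 and 1.67 for Mmp7. Progenitors held 7.79 and 8.79 for Defa21 and 0.716 and 2.58 for Mptx2, also below Paneth cells. In set 1 every other class was below Paneth cells for Defa21 and Mptx2. For Mmp7, EEC (1.19 and 7.19), tuft cells (0.810 and 10.0) and ISC (0.487 and 2.60) were also above Paneth cells in both libraries. In set 2 every other class was above Paneth cells for Mmp7. Lyz1 was at 12.4 and 16.5 per 100 Defa24 UMIs in goblet cells against 21.1 and 24.9 in Paneth cells. Itln1 was at 9.15 and 32.7 against 8.33 and 15.3. Cells that captured RNA of 2 cells were not called, and their part was not tested.

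**Figure D4:**
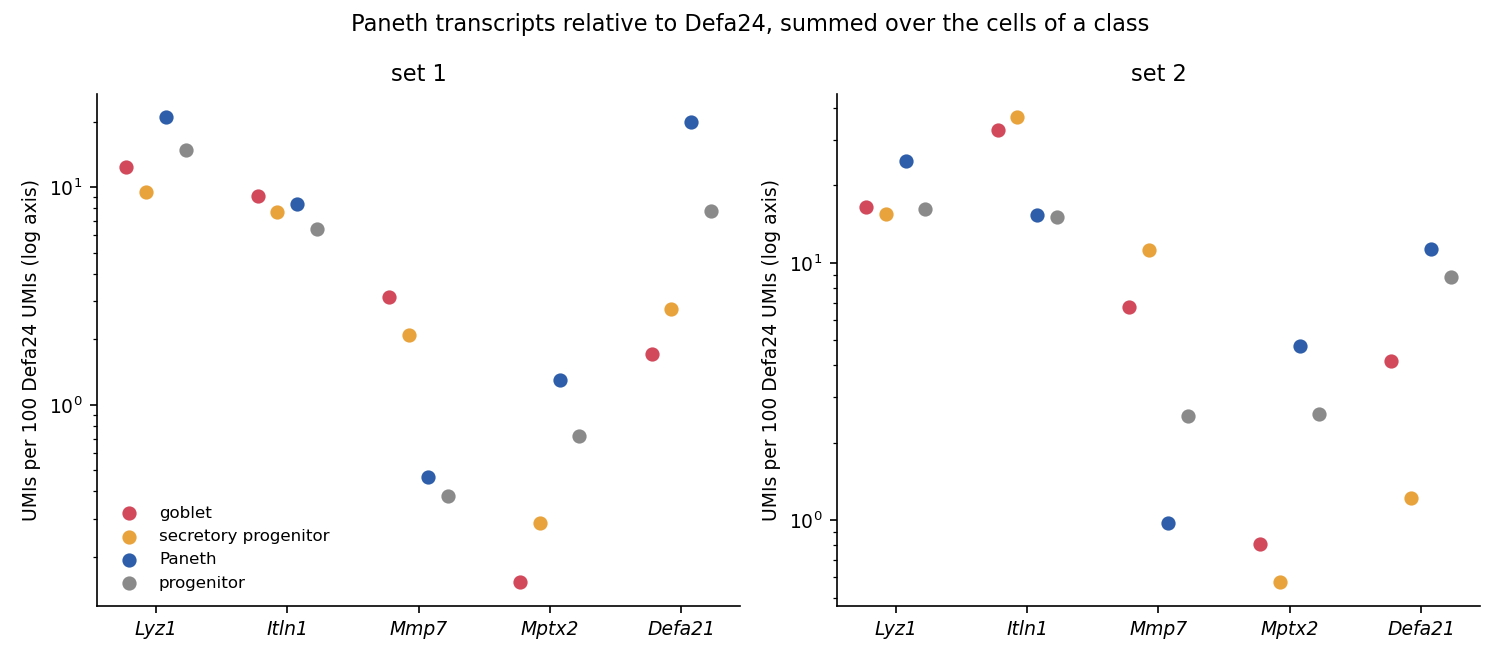
UMIs of 5 Paneth transcripts per 100 Defa24 UMIs, summed over the cells of 4 classes, on a log axis with set 1 left and set 2 right. Goblet cells and secretory progenitors have less Mptx2 and Defa21 and more Mmp7 per Defa24 than Paneth cells in both libraries. Progenitors also have less Mptx2 and Defa21 than Paneth cells in both.

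Goblet cells differed widely among themselves in Zg16, while each held Tff3 and Agr2. In 8000 UMIs per cell, Zg16 had a median of 214 in set 1 and 360 in set 2, with a 10th percentile of 1.4 and 2 and a highest value of 2592 and 3623. Tff3 ran from 39 to 1370 in set 1 (median 479) and from 34 to 1142 in set 2 (median 271). Agr2 had medians of 140 and 235 and 10th percentiles of 55.0 and 76.6. Cells with little or no Zg16 thus still held the class's 4 markers. In secretory progenitors the Zg16 median was 5.5 and 9.5, and its highest value 265 and 601.

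By rank correlation across thinned cells of a library (105 and 239 cells, which share the library and the fixed depth), the genes most like Zg16 of 2322 compared were Fcgbp (0.72 and 0.71), Ifi27l2b (0.70 and 0.71), Muc2 (0.69 and 0.77), Clca1 (0.69 and 0.79) and Tff3 (0.64 and 0.74). Lypd8 (0.58 and 0.74) and Krt20 (0.52 and 0.47) were also among the first 15. Ribosomal protein genes filled the opposite end, with their sum at -0.71 and -0.85, and at -0.53 and -0.61 when levels are taken per UMI that is not of a mucus or granule gene. Proliferation genes were at -0.39 and -0.49. Spink4 ranked cells partly in another order. Its nearest genes were Ramp1 (0.53 and 0.52), Klk1 (0.51 and 0.60), Guca2a (0.49 and 0.50), Tff3 (0.57 and 0.47) and Muc2 (0.46 and 0.55). Itln1 (0.38 and 0.46), Defa24 (0.41 and 0.35) and Reg4 (0.51 and 0.33) were also among its first 15. Ramp1, Klk1, Tff3, Muc2 and Gm1123 were among the first 15 for both Zg16 and Spink4. Spink4 with Krt20 was at -0.10 and -0.08 and with Zg16 at 0.28 and 0.25. Per UMI that is not of a mucus or granule gene, these were 0.06 and 0.07 and 0.43 and 0.39. Agr2 with Muc2 was at 0.08 and 0.04 and with Zg16 at 0.15 and 0.01, and on that other scale at 0.28 and 0.27 and at 0.32 and 0.24. The low values thus depend on the scale.

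**Figure D5:**
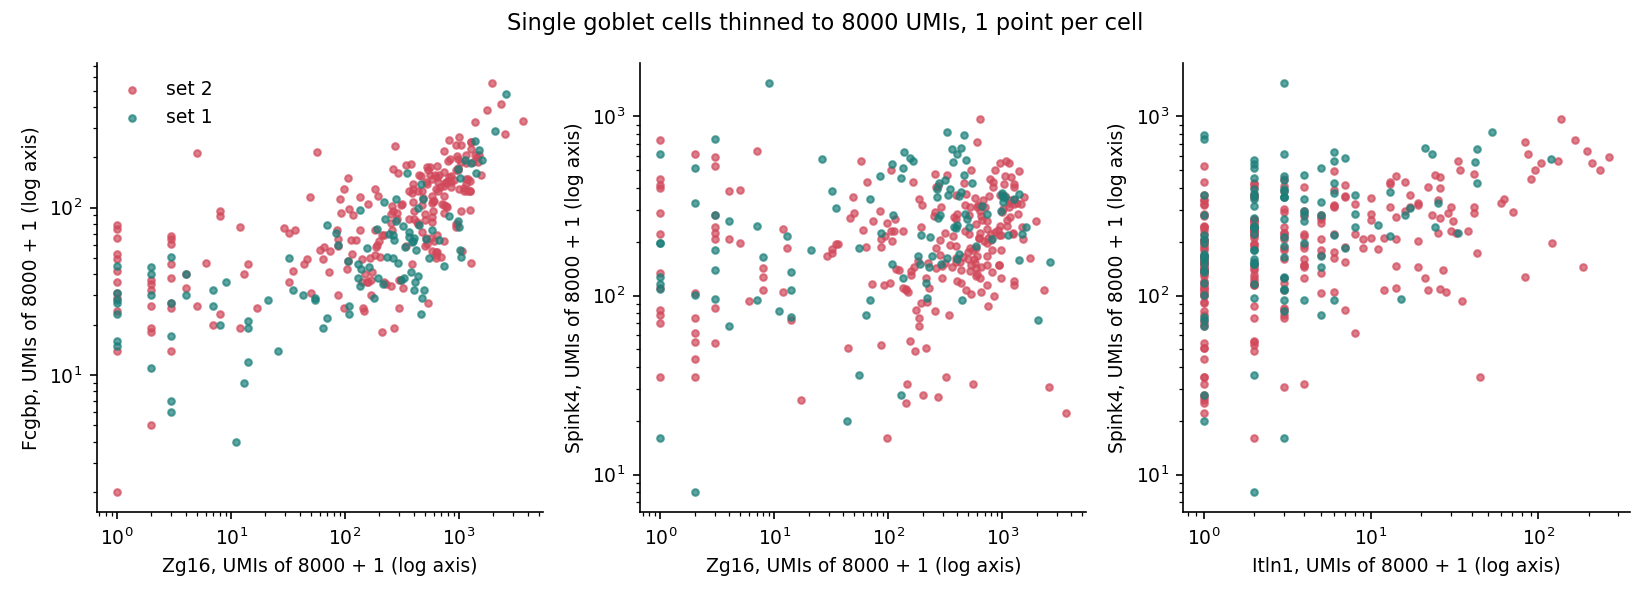
Single goblet cells thinned to 8000 UMIs, with UMIs plus 1 on log axes and 1 point per cell (set 1 green, set 2 red). Fcgbp climbs with Zg16 (left), Spink4 hardly does (middle), and cells with much Itln1 mostly have high Spink4 (right).

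Goblet cells of set 2 and set 1 also differed, mostly in the direction in which the other cells differed too. Of 8663 genes, 613 (7.08%) were at least 2-fold higher in set 2 and 258 (2.98%) at least 2-fold lower. Of those 871, 797 had the same sign in the other annotated cells and 321 were 2-fold apart there as well. They include genes that every cell uses, such as the ribosomal Rps18 at 1156 in set 1 and 67.7 in set 2 and Gapdh at 443 and 105, with other cells at 1019 and 85.9 and at 533 and 133. Between the sets, library and animals cannot be told apart. Among genes with known roles in the intestine, B4galnt2, which finishes a mucin sugar, was at 7.07 and 54.6 CPM in goblet cells and at 5.88 and 46.7 in the others. Fabp6, the bile acid binding protein of the distal small intestine, was at 10.3 and 165 in goblet cells and 168 and 721 in the others. Reg3b was at 270 and 1842, and Reg4 at 837 and 193. Of the markers, Tff3 was lower in set 2 (60186 and 32594), and Muc2, Fcgbp and Agr2 were higher. In the other cells Muc2 was also higher in set 2, at 216 and 819, and Tff3 nearly level at 2444 and 2241. The class mix of that sum differed between the sets, and its part was not tested. Secretory progenitors, the next class for Muc2, gave 1653950 of 22108035 UMIs in set 1 and 6581863 of 41326755 in set 2.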

How the data were processed

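Separated cells were captured with 10x Chromium chemistry, per the labels' protocols, and the deposited matrices hold raw UMI counts for each gene and barcode. The submitters' processing notes name build mm9, and the header of the set 2 matrix gives software version 3.0.1. Not given in the sources used here: aligner, cell filter, and the clustering behind the authors' deposited cell classes. Barcodes were joined to that table by set, and no doublet caller was run. UMIs were summed by class in each library with 0.5 added to each sum, and a gene was called at a 2-fold ratio the same way in both libraries, with an expected goblet count of at least 5. Nothing says that the 2 sets are separate animals, and no test was made. The text names the 4 markers, the 20 genes with the largest and 10 with the smallest ratio (the value nearer 0 of both libraries), and, from each list, members called and up to 4 further members with the most goblet UMIs. Genes of the comparisons with secretory progenitors, between sets and among cells were named after their values were seen. Members and lists were chosen with earlier results of these data known. For values per cell, each cell was thinned to 8000 UMIs. Code was tested on simulated data, and used Python 3.11.15, numpy 2.4.6, pandas 2.3.3, scipy 1.17.1 and matplotlib 3.10.9. Promoters are from RefSeq, GRCm38.p6, so their coordinates are not those of mm9. Alternatives covered scaling, count filters, weighting of cells and classes and each library alone. Leaving out goblet cells rich in other classes' markers, or Paneth cells, was added after seeing the data. Some genes that the rule for named genes selects are not reported here.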

Additional observations from a re-analysis of the deposited data

Results flagged for a closer look

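Signal of the 4 goblet markers was also found in barcodes that the authors' table gives no class. In set 2, 60 of 6241 unannotated barcodes held a share of Muc2, Tff3, Fcgbp and Agr2 at or above the tenth percentile of goblet cells (4.25% of UMIs), and in set 1 this was so for 1 of 65 (4.16%). Of the 60, 54 had more than 15% mitochondrial UMIs, a level that no annotated cell exceeded, and 6 had less. Their median depth was 5027 UMIs (599 to 61886) and their median mitochondrial share 27.0%. For comparison, 53 of 1220 other annotated cells of set 2 passed that share, 49 of them secretory progenitors.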

How the results depend on the processing

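Of 3783 values (291 named genes under 13 settings), 3124 moved by less than the spread between the libraries. Count filters leave a ratio unchanged, and the ratio of either library alone lies within that spread of the mean by construction. Values under those settings could not have moved by more, so their stability says nothing about the genes. Among genes called in either direction 12 values changed sign, all of them with Paneth cells left out of the other cells, and among the 56 named genes not called 25 of 728 values did, in 14 genes. Without Paneth cells the mean log2 ratio was 0.43 for Defa23, 1.84 for Ang4, 2.18 for Lyz1, 1.69 for Defa17, 1.11 for Defa21, 1.05 for Defa22, 2.31 for Defa24, 0.000262 for Defa5, 2.72 for Itln1, 0.67 for Mptx2, 2.19 for Habp2 and 1.82 for Lyz2. In either library alone, 765 to 833 genes were at least 2-fold higher and 1204 to 1940 lower, against 478 and 906 in both. The goblet share ranged from 9.18% to 17.0%. A minimum expected count of 20 left 291 higher and 546 lower, and no filter gave 1531 higher and 1258 lower. Higher genes were 34.5% of those called, 46.1% with median-of-ratios scaling (617 and 721), 53.0% with totals that leave out 50 genes (705 and 625) and 54.9% with no filter. They were 24.9% without Paneth cells (430 and 1300), 25.5% with the other classes weighted equally (350 and 1020) and 25.8% for the mean over cells (465 and 1336). Counts of lower mucus and lineage genes, 5 each, were 2 and 3 with totals that leave out 50 genes, and the latter was 1 of 20 tested with a minimum expected count of 20. The median of all genes moved from -0.03 and -0.28 to 0.25 and -0.02 with those totals, to -0.40 and -0.38 without Paneth cells and to -0.32 and -0.34 with other classes weighted equally. No paired analysis was possible because the 2 libraries form 1 group and no result comes from a test. Depth limits genes with few goblet UMIs, such as Mptx1.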
